A study of Mus musculus with 11 samples.

Results

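The comparison described here asks, gene by gene, whether 2-cell mouse embryos that lack maternal Ring1 and Rnf2 still depend on new transcription as control embryos do. For every gene the treatment difference (untreated minus α-amanitin, on the log2 scale of the deposited values) was taken in each genotype, and the interaction was the mutant treatment difference minus the control one. A negative interaction means that the untreated value exceeded the α-amanitin value by less in mutant than in control embryos. All 11 arrays of the series entered, and 21106 genes, each represented by its brightest probe set with 1 gene symbol, stood for the 34760 probe sets tested. These genes entered without a filter on their differences. The gene lists were chosen with earlier results of these data known, and many genes named below were picked by a rule that used their differences.

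The 4 groups comprised 3 untreated control, 3 α-amanitin-treated control, 3 untreated mutant and 2 α-amanitin-treated mutant arrays. Control embryos came from eggs labelled as lacking maternal Ring1 but holding maternal Rnf2, and mutant embryos from eggs lacking both, so the absence of maternal Ring1 was common to all groups. All embryos had the mixed 129/Sv and C57BL/6J background. Eggs came from superovulated females aged 5 to 10 weeks, were collected 14 h after hCG, and were fertilized in vitro with sperm of control males aged 10 to 16 weeks. The embryos therefore received a paternal genome from a male described as wild type. α-Amanitin was given at 24 µg/ml from 6 h after fertilization and the treated embryos were harvested at 35 h, whereas the sources used here do not state when untreated embryos were harvested. Each array measured a pool of 40 embryos from several mice after whole-transcriptome amplification. There was no spike-in, so values are relative within an array, and fewer embryos that express a gene cannot be told apart from less RNA per embryo.

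The egg stores messenger RNA for the first divisions, and most of this maternal store is degraded as the embryo activates its own genome. In the mouse the main wave of this zygotic genome activation takes place at the 2-cell stage. α-Amanitin blocks RNA polymerase II, so a transcript that is higher without the drug is one that the embryo's own transcription supplies, and a transcript that is higher with the drug is usually a maternal one whose removal needs embryonic transcription or whose share of the RNA grows when new transcripts are missing. Ring1 and Rnf2, also called RING1A and RING1B, carry the ubiquitin ligase activity of PRC1, a Polycomb repressive complex that modifies histone H2A and holds developmental genes silent.

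The targeted gene followed the labels. Rnf2 read 6.84, 6.59 and 6.70 in untreated control arrays and 7.31, 6.89 and 7.02 in treated control arrays, against 5.00, 5.17 and 5.08 in untreated mutant arrays and 5.18 and 5.24 in treated mutant arrays. No mutant array reached the level of any control array, with a difference of -1.63 without the drug (exact two-sided permutation p = 0.1, the smallest that 3 against 3 arrays allow) and -1.86 with it (exact p = 0.2, the smallest that 3 against 2 allow). Ring1, absent from both kinds of egg by label, read 4.35 to 4.79 in all 11 arrays and differed between genotypes by -0.07 without the drug (exact p = 0.7) and -0.11 with it (exact p = 0.2). The untreated Ring1 difference was 0.04 without untreated control replicate 2. The array medians lay between 4.45 and 4.55, so values near 4.5 leave little room to fall. Treated mutant replicate 2 stood apart from its partner in breadth, where 14.2% of probe sets exceeded 6 on the log2 scale against 11% in replicate 1 and 11.2% to 12.6% in the treated control arrays. Every interaction uses this pair. Values with either of its arrays left out are given for the class sizes, for the division between untreated and treated pairs, and for most gene lists.

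In control embryos 4072 of the 21106 genes were higher without α-amanitin and 2967 were higher with it, at an adjusted p below 0.05 in limma with Benjamini-Hochberg adjustment over all probe sets, which is 19.3% and 14.1% of genes. In mutant embryos 548 (2.6%) were higher without the drug and 231 (1.09%) higher with it. The interaction passed the threshold for 2852 genes in the negative direction (13.5%) and for 874 in the positive direction (4.14%). Among these, 1646 negative and 222 positive interactions were at least 2-fold. On the level of probe sets there were 5527 control calls in favour of untreated embryos (15.9%) and 3946 in favour of the drug (11.4%), 885 (2.55%) and 353 (1.02%) in mutant embryos, and 1205 positive (3.47%) and 3778 negative (10.9%) interactions. Of these interaction calls 24.2% were positive, but this share was 36.4% after cyclic loess and 53.8% after quantile normalization of the deposited values (3323 positive and 2848 negative calls), so the balance of the directions depends on how the arrays are scaled against each other. The median interaction over all probe sets was 0.01 as deposited and 0.02 after quantile normalization.

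Most genes called in control embryos were not called in mutant embryos, and for many of these the interaction was not called either. Of the 4072 genes higher in untreated control embryos, 138 kept the difference (called the same way in both genotypes, interaction not called) and 367 had a reduced one (called the same way in both, with a negative interaction). A further 2374, or 58.3%, lost it, meaning that the mutant difference was not called and the interaction was. For 1175, or 28.9%, the mutant difference was not called and neither was the interaction, so these data do not decide. The difference was larger in mutant embryos for 6 genes and reversed for 12. Of the 2967 genes higher in treated control embryos, 123 kept the difference, 24 had a reduced one, 806 lost it, 2 reversed it and 2012 stayed undecided. Another 46 genes gained a difference that control embryos did not show, 17 higher without the drug and 29 higher with it. These classes rest on thresholds, and a mutant difference that was not called is not shown to be 0.

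The levels in each class show what these names mean. The genes that lost a difference in favour of untreated embryos had a median of 6.30, 6.16 and 6.20 in untreated control arrays and 4.89, 4.91 and 4.83 in treated control arrays. Their medians in mutant embryos were 5.36, 5.20 and 5.33 without the drug and 5.07 and 5.33 with it, so the untreated mutant arrays lay between the 2 control groups and close to the treated mutant arrays. The median difference was 1.13 (2.18-fold) in control and 0.07 (1.05-fold) in mutant embryos. Genes with a reduced difference had a steeper control response. Their medians were 7.58, 7.40 and 7.49 against 4.74, 4.76 and 4.72 in control embryos and 6.14, 5.64 and 5.99 against 4.76 and 4.88 in mutant embryos, a median difference of 2.64 (6.23-fold) against 0.97 (1.95-fold). Genes that kept the difference had 5.65, 5.67 and 5.62 against 4.58, 4.64 and 4.59 in control and 5.70, 5.36 and 5.48 against 4.56 and 4.61 in mutant embryos, with median differences of 0.98 and 0.81.

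Class sizes differed in how far they rested on single arrays. Mutant calls of probe sets in favour of the drug numbered 353, but 72 without treated mutant replicate 2 and 1277 without replicate 1, and between 112 and 221 without untreated mutant replicate 1, 2 or 3 or untreated control replicate 2. Those in favour of untreated embryos numbered 885, and 531 without untreated mutant replicate 1. Leaving out treated mutant replicate 2 left 1885 genes that lost a difference in favour of untreated embryos, and leaving out replicate 1 left 2488. Genes that kept a difference in favour of untreated embryos numbered 149 without treated mutant replicate 2 but 71 without untreated mutant replicate 1. Reduced differences in that direction numbered 215 without treated mutant replicate 1, 218 without untreated mutant replicate 1 and 226 without untreated mutant replicate 3. The classes that need a call in favour of the drug in mutant embryos were the least stable. Genes that kept such a difference numbered 13 without treated mutant replicate 2 and 540 without replicate 1, and reversed genes numbered 1 and 134. Kept genes in that direction also numbered 26, 62 and 51 without untreated mutant replicate 1, 2 and 3 and 71 without untreated control replicate 2. Reversed genes numbered 2 to 6 without untreated mutant replicate 1 or 2, any 1 of the untreated control arrays, or treated control replicate 2 or 3. Gained genes numbered 23 without treated mutant replicate 2, 177 without replicate 1, 23 and 28 without untreated mutant replicate 1 and 2, 29 without untreated control replicate 1 and 30 without treated control replicate 2. The 24 reduced differences in favour of the drug numbered 48 without treated mutant replicate 1, 2 without replicate 2, 3 to 7 without an untreated mutant array, and 11 to 15 without untreated control replicate 1 or 2 or treated control replicate 2. Larger differences numbered 13 without treated mutant replicate 1. Losses in favour of the drug numbered 1168 without treated mutant replicate 2 and 414 without replicate 1.

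**Figure D1:**
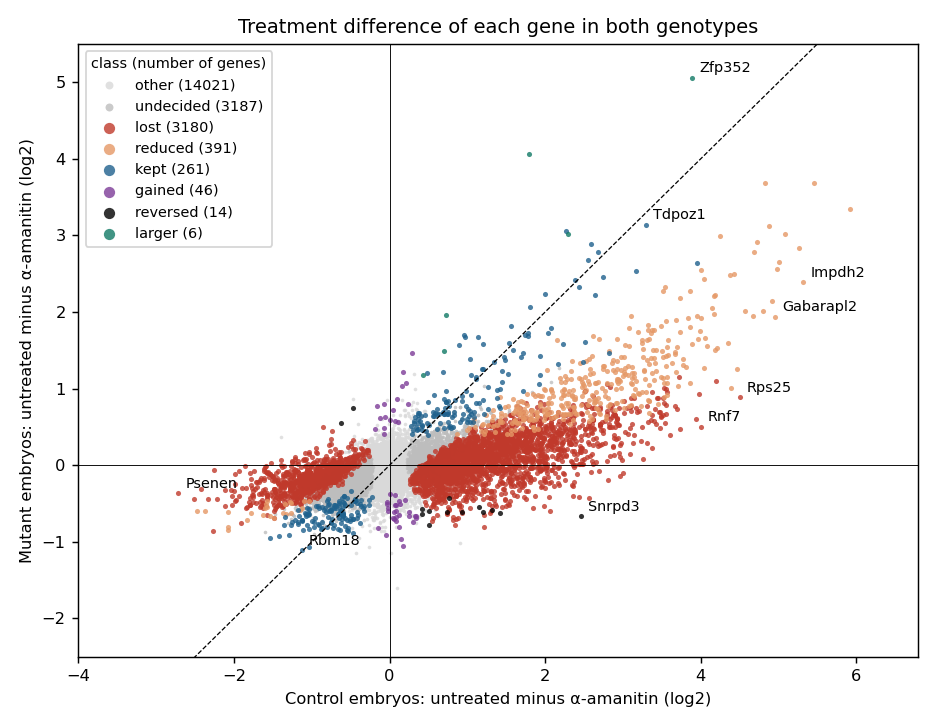
Each point is a gene, with its untreated minus α-amanitin difference in control embryos on the horizontal axis and in mutant embryos on the vertical axis (log2, group means of 3 arrays, 2 for treated mutant). Colours give the class and the dashed line marks equal differences. The cloud of 3180 genes that lost their control difference lies along the horizontal axis, while the 6 genes with a larger one, Zfp352 among them, lie above the dashed line.

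The mutant arrays share no array with the control contrast, so they show how genes picked in control embryos behave in samples that did not pick them. The 4072 genes higher in untreated control embryos had a median difference of 0.93 there and 0.14 in mutant embryos. The mutant median was 0.23 against treated mutant replicate 1 and 0.06 against replicate 2. Of these genes 511, or 12.5%, were called the same way in mutant embryos, beside 2.6% of all genes, and 71% had the same sign, beside 40.5% of all genes. The fraction retained grew with the size of the control difference. Among 2197 genes with a control difference of up to 1 the mutant median was 0.05, and 3.5% were called. Among 1207 genes between 1 and 2 it was 0.21, and 11.4% were called. Among 473 genes between 2 and 3 it was 0.54, and 33.6% were called. Among the 195 genes above 3, whose control median was 3.48, the mutant median was 1.22, and 70.8% were called. The steepest responders thus kept a measurable but smaller difference. The 2967 genes higher in treated control embryos had medians of -0.62 in control and -0.21 in mutant embryos, the latter being -0.08 against treated mutant replicate 1 and -0.33 against replicate 2. Of these, 147 (4.95%) were called the same way in mutant embryos, beside 1.09% of all genes. The same sign was found for 90.6% of them, beside 59.5% of all genes.

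**Figure D2:**
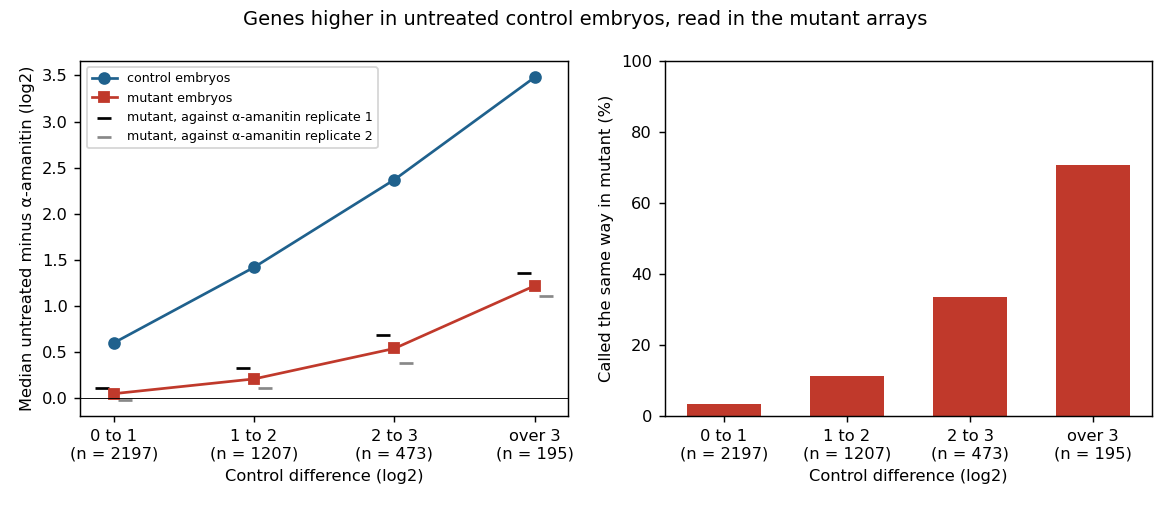
Genes higher in untreated control embryos, binned by their control difference (log2, number of genes under each bin). The left panel gives the median difference in control (circles) and mutant embryos (squares), with short bars for the mutant value against each treated mutant array alone, and the right panel gives the percentage called the same way in mutant embryos, which goes from 3.5% to 70.8%.

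An interaction can come from the untreated embryos, from the treated embryos or from both. Over all genes, a genotype difference was called for 25.1% in untreated and for 11% in treated embryos. The untreated comparison had 3 against 3 arrays and the treated one 3 against 2, so calls were easier to reach without the drug. Of the 2852 negative interactions, 2024 went with a genotype difference called in untreated embryos alone, 399 with one called under both conditions, 345 with one called under α-amanitin alone and 84 with neither. The untreated pair held the larger part for 2262 of them, or 79.3%. The median genotype difference of these genes, mutant minus control, was -0.84 without and 0.23 with the drug. Without treated mutant replicate 1 this share was 67.2% of 3142 negative interactions, and without replicate 2 it was 83.7% of 2194. Of the 874 positive interactions the larger part lay in the untreated pair for 431 and in the treated pair for 443, with medians of 0.39 and -0.39. The untreated pair held it for 255 of 505 positive interactions without treated mutant replicate 1 and for 512 of 1214 (42.2%) without replicate 2. Psenen, a γ-secretase subunit, and Cdo1, a cysteine dioxygenase, show both ends. Psenen read 7.95, 8.08 and 7.88 in untreated control arrays, 10.48, 10.43 and 10.14 in untreated mutant arrays, 10.91, 10.62 and 10.53 in treated control arrays and 10.54 and 10.88 in treated mutant arrays. Untreated control embryos alone were low. Cdo1 read 7.73, 7.77 and 7.31, then 7.54, 7.56 and 7.39, then 9.70, 9.66 and 9.44, then 7.33 and 7.89 in the same order of groups, so treated control embryos alone were high.

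**Figure D3:**
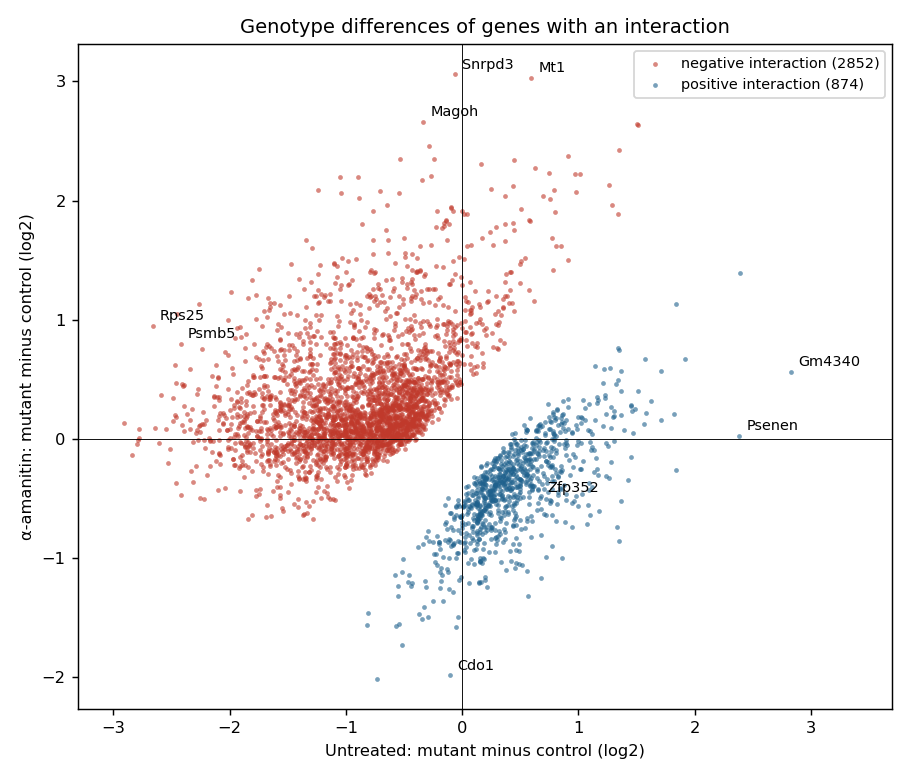
Genes with an interaction past the threshold, placed by their mutant minus control difference without (horizontal) and with α-amanitin (vertical), in log2. Of the 2852 negative interactions (red) 79.3% owe the larger part to the untreated pair, and the 874 positive ones (blue) are spread along both axes.

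The genes whose difference in favour of untreated embryos was kept or larger in mutant embryos include many of the 2-cell activation genes. These genes have a burst of expression at this stage. The list named 38 genes and 21 were measured here. In control embryos 18 of the 21 were higher without the drug, and in mutant embryos 16 of 21, beside 19.3% and 2.6% of all genes. The median difference was 2.04 in control and 1.73 in mutant embryos. By array, the list's median level was 6.57, 6.55 and 6.56 against 4.61, 4.63 and 4.48 in control embryos and 6.42, 6.42 and 6.62 against 4.62 and 4.53 in mutant embryos. The 2 genotypes overlapped under both conditions. Of the 21 genes 10 kept the difference (Tcstv3, Usp17lb, Usp17lc, Tdpoz1, Tdpoz2, Tdpoz3, Tdpoz4, Spz1, Tmem92 and Pramel17) and 2 had a larger one (Zfp352 and Gm4340). The difference was reduced for 4 (Pramel6, Pramel7, Obox6 and Fbxo15) and lost for Sp110, and Zfp780b was undecided, while Usp17la, Usp17ld and Arg2 were called in neither genotype. The median interaction of -0.11 has no stable sign, being 0.34 after quantile normalization and 0.02 without treated mutant replicate 2.

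Tdpoz1, which encodes a protein with a TRAF-like and a POZ domain, had the largest kept difference. It read 8.29, 8.17 and 8.24 without and 4.84, 4.82 and 5.13 with the drug in control embryos, and 7.86, 7.08 and 7.52 without and 3.96 and 4.73 with it in mutant embryos. No untreated array of either genotype overlapped with a treated one. The difference was 3.30 ± 0.22 (limma's standard error) in control and 3.14 ± 0.24 in mutant embryos (adjusted p = 8.12e-05), and the interaction was -0.16 ± 0.32 (adjusted p = 0.849). Its relatives Tdpoz5 (2.55 and 2.68) and Spopfm2 (2.59 and 2.89) and the PRAME-family gene Pramel19 (2.68 and 2.79) behaved alike. Zfp352, a zinc finger gene, went further: 8.96, 9.56 and 9.26 without and 5.26, 5.55 and 5.30 with the drug in control embryos, against 10.21, 9.75 and 9.83 without and 4.79 and 4.97 with it in mutant embryos. The untreated mutant arrays all lay above the untreated control arrays, and the treated mutant arrays below the treated control arrays. The difference was 3.89 ± 0.16 in control and 5.06 ± 0.18 in mutant embryos, with an interaction of 1.17 ± 0.25 (adjusted p = 0.00835). Gm4340 read 6.65, 7.37 and 6.56 without the drug in control embryos but 9.67, 9.65 and 9.76 in mutant embryos, with 5.27, 4.92 and 5.02 and 5.49 and 5.77 under the drug. Its difference was 1.79 ± 0.19 in control and 4.06 ± 0.21 in mutant embryos. Members of the Tdpoz, Usp17l, Pramel and Spopfm families can share near-identical sequence, so a probe set may read several copies and the gene it is credited to is uncertain.

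The other genes with a larger difference in mutant embryos were Klhl6, Snord33, Pramel20 and BC147527. Klhl6, a member of the Kelch-like family, read 4.73, 4.74 and 4.73 without the drug in control embryos and 5.42, 5.57 and 5.38 in mutant embryos, against 4.13 to 4.43 in the treated arrays of both genotypes (interaction 0.75 ± 0.15, adjusted p = 0.00522). Snord33, a small nucleolar RNA, had differences of 0.70 in control and 1.49 in mutant embryos (interaction 0.79 ± 0.19, adjusted p = 0.0186, or 0.0503 and 0.053 without treated mutant replicate 1 or 2). Pramel20 had an interaction of 1.24 ± 0.36 (adjusted p = 0.0418) that missed the threshold without any single array other than untreated control replicate 2 and treated mutant replicate 1 (adjusted p = 0.164 without treated mutant replicate 2). BC147527, named after its values were seen because the class holds 6 genes, had differences of 2.29 and 3.02.

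Promoter windows from RefSeq (GRCm38.p6, 250 bases before to 50 bases after the gene's start, first window per gene) were matched by symbol for 15262 of the 21106 genes. Those of Tdpoz1, which had the largest kept difference, of Zfp352, which had a larger one in mutant embryos, and of Rps25 and Rnf7, which had the most negative interactions among the named genes that lost a difference, are shown so that their CpG content can be seen, with every CpG in capitals. The windows are at chr3:93676234-93676533 (Tdpoz1, minus strand), chr4:90218570-90218869 (Zfp352, plus strand), chr9:44407464-44407763 (Rps25, plus strand) and chr9:96478626-96478925 (Rnf7, minus strand).
Tdpoz1: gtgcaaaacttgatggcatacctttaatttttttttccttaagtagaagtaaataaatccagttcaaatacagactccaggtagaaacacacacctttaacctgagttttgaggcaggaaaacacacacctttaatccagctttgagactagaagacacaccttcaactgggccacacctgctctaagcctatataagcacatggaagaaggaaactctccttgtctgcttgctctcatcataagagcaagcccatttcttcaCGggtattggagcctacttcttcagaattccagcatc
Zfp352: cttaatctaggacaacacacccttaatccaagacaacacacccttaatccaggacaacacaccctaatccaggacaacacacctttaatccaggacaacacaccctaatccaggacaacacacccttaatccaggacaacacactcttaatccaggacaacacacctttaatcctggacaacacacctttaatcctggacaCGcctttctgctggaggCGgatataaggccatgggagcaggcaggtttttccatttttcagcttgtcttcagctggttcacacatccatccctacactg
Rps25: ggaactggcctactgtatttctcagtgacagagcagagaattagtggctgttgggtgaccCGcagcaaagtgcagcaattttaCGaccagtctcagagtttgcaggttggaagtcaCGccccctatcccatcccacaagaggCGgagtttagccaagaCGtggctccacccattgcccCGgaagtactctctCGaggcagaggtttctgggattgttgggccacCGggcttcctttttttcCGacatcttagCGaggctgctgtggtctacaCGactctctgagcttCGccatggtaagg
Rnf7: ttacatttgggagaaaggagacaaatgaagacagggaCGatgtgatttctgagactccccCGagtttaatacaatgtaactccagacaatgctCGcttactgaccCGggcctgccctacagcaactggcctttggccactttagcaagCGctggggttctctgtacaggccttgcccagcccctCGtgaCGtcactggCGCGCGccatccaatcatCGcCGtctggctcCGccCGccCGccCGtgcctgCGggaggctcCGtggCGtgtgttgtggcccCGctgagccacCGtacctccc
The windows of Tdpoz1, Zfp352, Rps25 and Rnf7 held 1, 2, 12 and 21 CpGs, with ratios of observed to expected CpG of 0.08, 0.14, 0.54 and 0.78. Over all promoters the median ratio was 0.63. It was 0.82 (quartiles 0.68 and 0.95) for the 1860 matched genes that lost a difference in favour of untreated embryos, 0.85 for the 287 matched genes with a reduced one, and 0.70 (quartiles 0.42 and 0.93) for the 100 that kept it. Single windows need not stand for their class, since Tdpoz1 lay below the lower quartile of the kept genes and Rps25 below that of the lost genes. As the probe sets of Rps25 and Tdpoz1 may read other copies, their windows need not belong to the RNA measured. The 2-cell activation genes stood at 0.08 (14 matched) and the ribosome biogenesis factors at 0.85 (81 matched). The letters TATAAA on either strand were found in 12.3% of all promoter windows and in 3 of 14 windows (21.4%) of the 2-cell activation genes. For differences in favour of untreated embryos the share was 6.56% for lost, 5.57% for reduced and 14% for kept genes. For differences in favour of the drug it was 7.94% for lost and 7.07% for kept genes. These shares are descriptions of the windows and were not tested.

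The genes with the most negative interactions had various functions. Rnf7, the RING subunit of cullin ubiquitin ligases, read 10.23, 9.80 and 10.05 in untreated and 5.95, 6.11 and 6.02 in treated control arrays, but 7.97, 7.19 and 7.58 in untreated and 6.91 and 7.24 in treated mutant arrays. The control groups were far apart and the mutant groups overlapped. Its difference was 4.0 ± 0.18 in control and 0.50 ± 0.20 in mutant embryos (adjusted p = 0.254), an interaction of -3.50 ± 0.27 (adjusted p = 6.69e-05). Tomm7, a subunit of the outer mitochondrial membrane translocase, read 10.05, 9.69 and 9.71 against 7.03, 6.43 and 6.21 in control embryos and 8.24, 7.95 and 8.01 against 8.01 and 7.96 in mutant embryos. All mutant arrays lay between the 2 control groups, with an interaction of -3.18 ± 0.28. Aurka, a mitotic kinase, read 8.49, 8.31 and 8.38 against 5.47, 5.31 and 5.51 in control embryos and 7.42, 7.12 and 7.50 against 7.05 and 7.94 in mutant embryos (interaction -3.10 ± 0.29). The monocarboxylate transporter gene Slc16a6 (-3.25 ± 0.24) and the ribosomal protein paralogue Rpl39l (-3.14 ± 0.28) showed the same form. Rps25, a small-subunit ribosomal protein gene, had the most negative interaction of all named genes (-3.61 ± 0.44). Its difference was 4.50 in control and 0.89 in mutant embryos (limma adjusted p = 0.206), where the groups overlapped. However, 3 of its 6 probe sets were called, and ribosomal protein genes have many processed copies, so these values are uncertain.

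The 367 genes with a reduced difference in favour of untreated embryos had a median mutant difference of 0.97, and the 24 in favour of the drug one of -0.60. The leading genes of the first direction lay above that median in mutant embryos. Impdh2, an enzyme of guanine nucleotide synthesis, read 11.04, 10.82 and 11.06 against 5.90, 5.43 and 5.64 in control embryos and 9.17, 7.76 and 8.62 against 5.80 and 6.46 in mutant embryos. The mutant groups did not overlap, and untreated mutant replicate 2 was the lowest of its group. The difference was 5.32 ± 0.30 in control and 2.39 ± 0.34 in mutant embryos (adjusted p = 0.00351), with an interaction of -2.93 ± 0.45. Gabarapl2, an autophagy gene, had differences of 4.95 ± 0.27 and 1.94 ± 0.30, and Bola2, a gene of iron-sulfur protein assembly, 4.39 ± 0.21 and 1.01 ± 0.23. Untreated mutant replicate 2 was again the lowest of its group for both, at 7.72 for Gabarapl2 and 7.19 for Bola2.

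**Figure D4:**
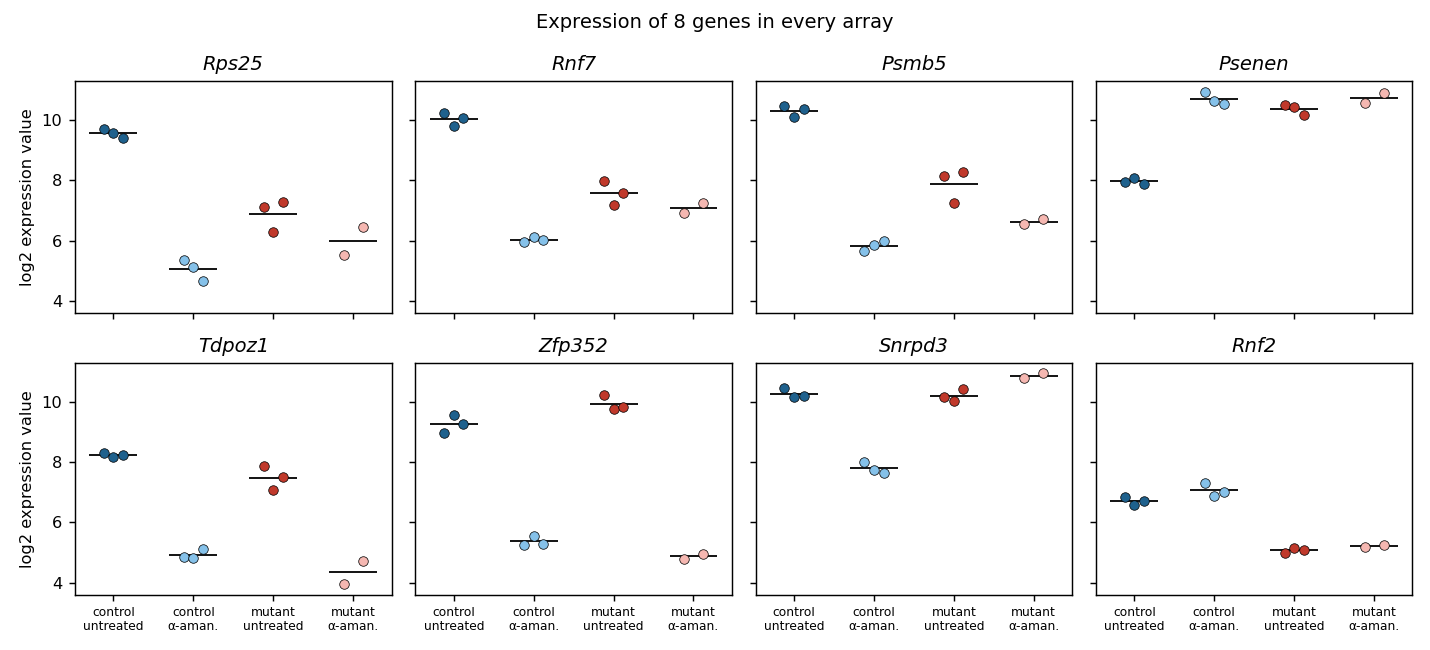
Log2 expression values of 8 genes in every array (points) with the group mean (line), for control and mutant embryos with and without α-amanitin. Rnf7 and Rps25 fall apart by treatment in control embryos and less so in mutant embryos, where Rps25 has a difference of 0.89 that was not called. Tdpoz1 and Zfp352 fall apart in both, Psenen is low in untreated control embryos alone, and Rnf2 is low in all mutant arrays.

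Genes for making ribosomes mostly lost their difference in favour of untreated embryos (72 of 98) or had a reduced one (15 of 98). Of 98 measured ribosome biogenesis factors, 95 were higher in untreated control embryos, 15 were so in mutant embryos, and 88 had a negative interaction, beside 13.5% of all genes. By array, the list's median level was 6.88, 6.72 and 6.71 against 4.79, 4.79 and 4.71 in control embryos and 5.51, 5.32 and 5.56 against 4.97 and 5.31 in mutant embryos. The untreated mutant arrays all lay far below the untreated control arrays. The median interaction was -1.61, with a range of -1.77 to -1.17 over the alternatives, the latter after quantile normalization. Rrp15, a factor of the large subunit's assembly, read 6.44, 6.50 and 6.62 against 4.57, 4.61 and 4.45 in control embryos and 5.26, 5.20 and 5.23 against 5.02 and 5.23 in mutant embryos (interaction -1.88 ± 0.13, adjusted p = 5.18e-05). Pno1, which acts on the small subunit, had differences of 1.99 ± 0.09 and 0.15 ± 0.10 (interaction -1.84 ± 0.14).

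Ribosomal protein genes had negative interactions too. Of 66 measured cytosolic ribosomal proteins 63 were higher in untreated control embryos and 27 in mutant embryos. A negative interaction was called for 58 (87.9%, beside 13.5% of all genes). Their median level was 9.10, 8.86 and 8.99 against 5.97, 5.83 and 5.89 in control embryos and 7.63, 6.83 and 7.32 against 6.35 and 6.62 in mutant embryos. Rps21 read 10.42, 10.31 and 10.35 against 7.0, 6.95 and 6.85 in control embryos and 9.39, 8.79 and 9.02 against 8.57 and 8.50 in mutant embryos, so a mutant difference of 0.53 ± 0.15 (adjusted p = 0.0798) stood beside 3.43 ± 0.13 in control embryos. Rpl41 had differences of 2.88 ± 0.11 and 0.40 ± 0.13, with untreated levels of 10.88, 10.84 and 10.97 in control and 10.68, 10.74 and 10.48 in mutant embryos. Its genotype gap lay under the drug, at 7.95, 8.26 and 7.86 in control against 10.31 and 10.17 in mutant embryos. Processed copies make single ribosomal protein genes uncertain. Of 76 mitochondrial ribosomal proteins 40 (52.6%) had a negative interaction, among them Mrps12 (control 2.05 ± 0.12, mutant -0.23 ± 0.13) and Mrps28 (1.56 ± 0.10 and 0.19 ± 0.11). The list's count was 23 after quantile normalization. Of 49 translation factors 34 (69.4%) had a negative interaction, such as the initiation factor subunits Eif3g (-2.15 ± 0.18) and Eif3m (-2.74 ± 0.28). So did 9 of 18 aminoacyl-tRNA synthetases (50%), led by Hars (-1.71 ± 0.19) and Tars (-1.15 ± 0.16).

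RNA processing and transcription machinery followed. Of 55 measured splicing factors, 48 were higher in untreated control embryos and 43 had a negative interaction (78.2%, beside 13.5% of all genes). The list's median level was 7.36, 7.19 and 7.14 against 5.36, 5.36 and 5.17 in control embryos and 6.39, 6.23 and 6.30 against 5.81 and 6.22 in mutant embryos. Magoh, a subunit of the exon junction complex, read 7.50, 7.26 and 7.31 against 4.52, 4.94 and 4.89 in control embryos and 7.01, 6.89 and 7.15 against 7.39 and 7.50 in mutant embryos (interaction -2.99 ± 0.18, adjusted p = 5.12e-05). The treated control embryos alone were low. Of 84 genes of RNA polymerase II, Mediator and the general transcription factors 53 had a negative and 3 a positive interaction. These are shares of 63.1% and 3.57% beside 13.5% and 4.14% of all genes. Polr2i, a polymerase subunit, had differences of 2.55 ± 0.13 in control and 0.30 ± 0.14 in mutant embryos, and Taf1, the largest subunit of TFIID, 1.64 ± 0.09 and -0.15 ± 0.10. Of 55 nucleoporins and nuclear transport receptors 31 had a negative and 3 a positive interaction (56.4% and 5.45%), with the RNA export receptor Nxf1 (-2.19 ± 0.24) and the importin Ipo5 (-1.74 ± 0.18) at their head. The positive counts of the polymerase and nuclear transport lists reached 10 and 9 after quantile normalization.

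Protein turnover, folding and energy genes were similar. Of 45 proteasome subunits 37 were higher in untreated control embryos and 3 in mutant embryos. Interactions were negative for 35 and positive for 2 (77.8% and 4.44%, beside 13.5% and 4.14% of all genes), with a median of -1.52. Psmb5, the subunit with the chymotrypsin-like activity, read 10.45, 10.09 and 10.36 against 5.64, 5.85 and 5.99 in control embryos and 8.15, 7.23 and 8.27 against 6.54 and 6.71 in mutant embryos. It kept a reduced difference of 1.26 ± 0.26 (adjusted p = 0.0259) beside 4.47 ± 0.23 in control embryos. Psma6 (-3.22 ± 0.38), Psmb4 (-2.77 ± 0.21) and Psmb1 (-2.0 ± 0.17) had negative interactions too. Of 28 genes on the chaperone list 18 had a negative and 2 a positive interaction (64.3% and 7.14%). The 2 positive ones, Hsf1 (0.88) and Hsf2 (0.47), both named after their values were seen, are heat shock factor genes rather than chaperone genes. The cytosolic chaperone Hsp90ab1 read 8.95, 8.91 and 8.90 against 6.32, 6.42 and 6.23 in control embryos and 8.17, 7.58 and 7.93 against 7.73 and 7.95 in mutant embryos, and Cct8, a chaperonin subunit, had an interaction of -1.87 ± 0.13. Among the chaperones, Hspa1a (control 1.05, mutant 0.92) and the endoplasmic reticulum chaperone Hspa5 (1.69 and 1.42), both named after their values were seen, kept their difference. Of 72 respiratory chain subunits 46 (63.9%) had a negative interaction, such as Uqcr10 (-1.86 ± 0.15) and Uqcrb (-1.95 ± 0.15, called for 2 of its 3 probe sets), both of complex III.

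**Figure D5:**
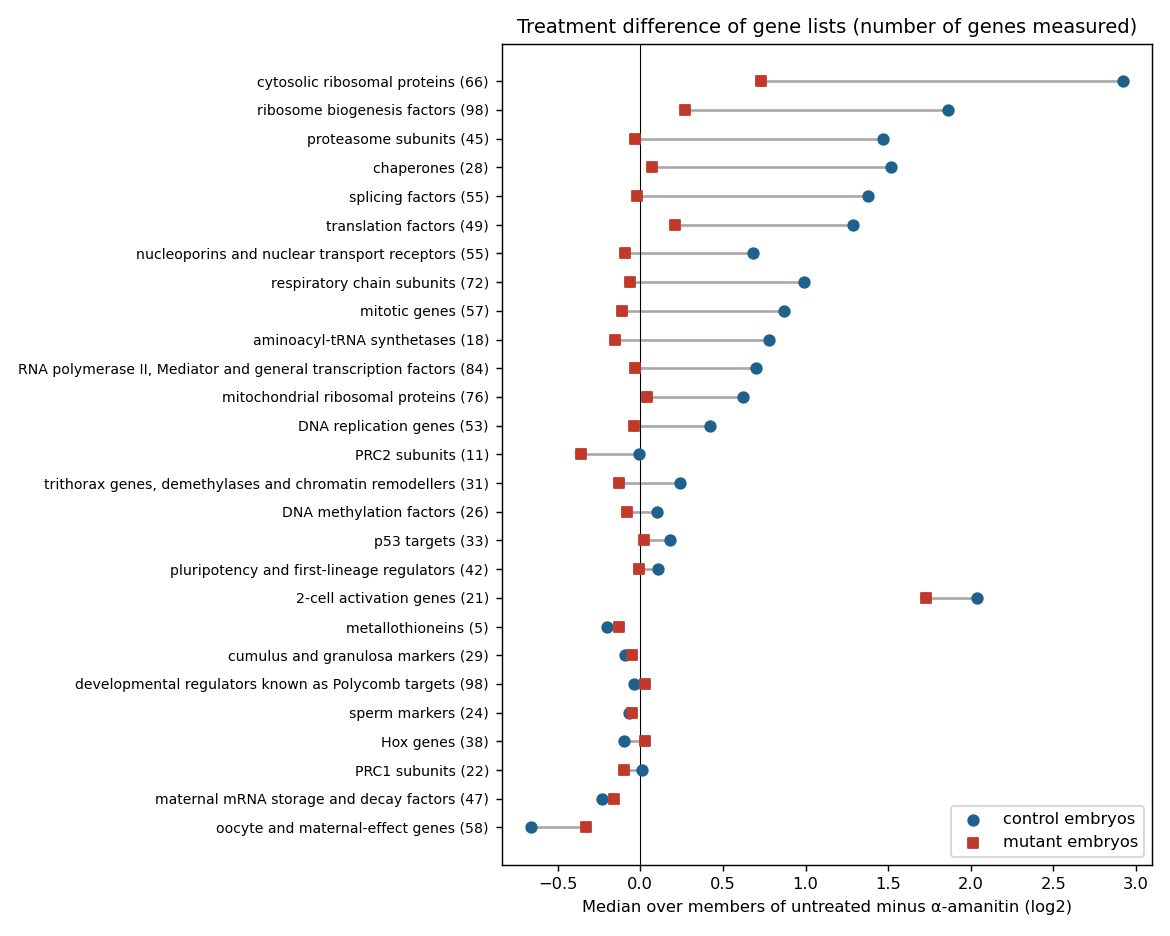
Median untreated minus α-amanitin difference (log2) over the measured members of each gene list, in control (circles) and mutant embryos (squares), ordered by the median interaction, with the number of genes measured in parentheses. Cytosolic ribosomal proteins go from 2.92 in control to 0.73 in mutant embryos and ribosome biogenesis factors from 1.86 to 0.27, whereas 2-cell activation genes stand at 2.04 and 1.73.

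Among cell cycle genes negative interactions outnumbered positive ones. Of 57 mitotic genes 38 were higher in untreated control embryos and 2 in mutant embryos. Interactions were negative for 36 and positive for 3 (63.2% and 5.26%, beside 13.5% and 4.14% of all genes). Cdc20, an activator of the anaphase-promoting complex, read 8.06, 8.17 and 8.10 against 5.61, 5.44 and 5.30 in control embryos and 6.95, 6.50 and 6.97 against 6.52 and 7.0 in mutant embryos (interaction -2.62 ± 0.23). Kif20a, a kinesin of cytokinesis, had one of -2.52 ± 0.21. Of 53 DNA replication genes 25 had a negative and 2 a positive interaction (47.2% and 3.77%). Cdc45 (control 2.88 ± 0.12, mutant 0.14 ± 0.13) and Gins3 (3.13 ± 0.18 and 0.29 ± 0.20), both parts of the replicative helicase, were the clearest. Of 33 p53 targets 11 had a negative and 1 a positive interaction, which is 33.3% and 3.03% beside 13.5% and 4.14% of all genes, and the list's median interaction was -0.16. Sesn2, a stress-response gene, read 8.53, 8.36 and 8.61 against 4.87, 5.00 and 4.94 in control embryos and 6.74, 5.98 and 6.46 against 5.09 and 5.10 in mutant embryos. Gadd45a had differences of 2.58 ± 0.11 and 1.26 ± 0.12, so both p53 targets kept a reduced difference.

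The list medians moved with the treated mutant array used, and further towards 0 after quantile normalization. Without treated mutant replicate 1 the median interaction was -1.77 for ribosome biogenesis factors and -2.19 for cytosolic ribosomal proteins, and without replicate 2 it was -1.41 and -1.85. For splicing factors it was -1.49 without replicate 1 and -1.01 without replicate 2, for proteasome subunits -1.79 and -1.26, and for chaperones -1.54 and -1.08. Mitotic genes had -0.85 with both arrays, -1.20 without replicate 1 and -0.73 without replicate 2, and DNA replication genes had -0.60, -0.75 and -0.42. In all of these lists the sign was the same and the median was nearer to 0 without replicate 2. Aminoacyl-tRNA synthetases had -0.80 with both arrays, -1.0 without replicate 1 and -0.52 without replicate 2. The median of the respiratory chain subunits was -0.89 with both arrays, -1.05 without replicate 1 and -0.90 without replicate 2. Translation factors had -1.46 and -1.02 without replicate 1 and 2, mitochondrial ribosomal proteins -0.84 and -0.51, the polymerase and general transcription factor list -0.99 and -0.59, and the nuclear transport list -1.10 and -0.64. The positive interactions of the nuclear transport list numbered 0 without replicate 1 and 7 without replicate 2. After quantile normalization all these medians stayed negative. They were -1.55 for cytosolic ribosomal proteins, -0.92 for splicing factors, -1.12 for proteasome subunits, -0.91 for chaperones and -0.87 for translation factors. Mitotic genes had -0.54, DNA replication genes -0.25, synthetases -0.36, respiratory chain subunits -0.59 and mitochondrial ribosomal proteins -0.37. The polymerase list had -0.46 and the nuclear transport list -0.50.

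Maternal genes showed the opposite sign. Of 58 measured oocyte and maternal-effect genes 41 were higher in treated control embryos, beside 14.1% of all genes, and 9 in treated mutant embryos, beside 1.09%. The interaction was positive for 15 (25.9%, beside 4.14% of all genes) and negative for 3. The list's median level was 6.90, 6.70 and 6.75 without and 7.70, 7.45 and 7.48 with the drug in control embryos, and 7.44, 7.19 and 7.13 without and 7.47 and 7.93 with it in mutant embryos. The untreated mutant arrays thus read higher than the untreated control arrays. The list's median interaction of 0.29 was 0.06 without treated mutant replicate 1, 0.56 without replicate 2 and 0.63 after quantile normalization, and 11, 26 and 38 members were then positive. Pla2g4c, a phospholipase of the oocyte, read 8.05, 8.28 and 8.07 against 10.74, 10.46 and 10.65 in control embryos and 9.49, 9.50 and 9.51 against 9.93 and 10.26 in mutant embryos. Its difference went from -2.48 ± 0.11 to -0.60 ± 0.12 (adjusted p = 0.0268), and Wee2, the oocyte kinase that inhibits Cdk1, went from -2.11 ± 0.16 to -0.33 ± 0.17. Dppa3, a maternal factor that protects DNA methylation and is transcribed again in the embryo, went the other way. It read 10.33, 10.14 and 10.05 against 7.90, 7.97 and 7.59 in control embryos and 9.97, 9.71 and 9.97 against 10.19 and 10.37 in mutant embryos (interaction -2.75 ± 0.19). The other members with a negative interaction, Zar1l (-1.85) and Dppa5a (-2.31), were also higher in untreated control embryos.

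Further genes that lost a difference in favour of the drug were the most positive interactions outside these lists. They included Stard3nl, a late endosomal protein gene (control -2.42 ± 0.13, mutant -0.32 ± 0.15), Cntnap1, a contactin-associated protein gene (-1.93 ± 0.14 and -0.07 ± 0.15), Ybx3, a Y-box RNA-binding protein gene (-1.86 ± 0.13 and -0.00 ± 0.15), and Tram1, a gene of protein translocation into the endoplasmic reticulum (-1.98 ± 0.13 and -0.24 ± 0.15). Ybx3 read 6.29 in each untreated control array, 8.42, 8.09 and 7.95 in treated control arrays, 6.91, 7.01 and 7.0 in untreated mutant arrays and 6.75 and 7.21 in treated mutant arrays. Both mutant groups lay between the control groups and overlapped. B4galt4 and Olfr288 had interactions of 1.72 ± 0.36 and 1.69 ± 0.24. Reduced differences in this direction were seen for Iqca, Sytl4 and Trappc2, with interactions of 1.46, 1.26 and 1.23. Those of Iqca and Trappc2 were called for 1 of 4 and 1 of 2 probe sets, and the mean over the probe sets of Iqca gave 0.34 (adjusted p = 0.0598). A kept difference in favour of the drug was seen for Usp46, a deubiquitinase gene, which read 6.34, 6.39 and 6.59 against 7.74, 8.02 and 8.16 in control embryos and 7.58, 7.67 and 7.76 against 8.44 and 8.80 in mutant embryos. Tnpo1, a nuclear import receptor gene (-1.03 ± 0.15 and -1.07 ± 0.17), Rbm18 (-1.13 ± 0.17 and -1.11 ± 0.19) and Septin11 (-1.42 ± 0.16 and -0.92 ± 0.18) were the others named. The mutant calls of Rbm18, Tnpo1 and Septin11 were lost without treated mutant replicate 2, at adjusted p of 0.084, 0.0529 and 0.119, and that of Septin11 also without untreated mutant replicate 1, at 0.0676.

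Of 47 factors of maternal mRNA storage and decay 10 had a negative and 7 a positive interaction, which is 21.3% and 14.9% beside 13.5% and 4.14% of all genes. The counts were 5 and 21 after quantile normalization, 9 and 4 without treated mutant replicate 1, and 6 and 12 without replicate 2. Cnot6l (control -1.62, mutant -0.64) and Cnot7 (-1.10 and -0.47), deadenylase subunits named after their values were seen, had reduced differences in favour of the drug. Of the other Cnot genes, also named after their values were seen, Cnot1 (-0.85), Cnot8 (-0.62) and Cnot10 (-0.66) had negative interactions. Cnot6 (0.82) had a positive one, and the remaining Cnot genes had none past the threshold. Parn, a poly(A) ribonuclease, read 4.68, 4.69 and 4.87 against 4.68, 4.69 and 4.70 in control embryos and 4.81, 4.81 and 4.95 against 5.46 and 5.48 in mutant embryos, a gained difference. The list's median interaction of 0.14 was -0.14 without treated mutant replicate 1 and 0.18 without replicate 2.

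In reversed genes and in genes that gained a difference in favour of the drug, the median genotype difference lay in the treated pair. Over the 12 reversed genes higher in untreated control embryos it was -0.08 without and 1.46 with the drug, and over the 29 gained genes it was 0.04 and 0.78. Snrpd3, a core protein of spliceosomal snRNPs, read 10.45, 10.15 and 10.17 against 8.0, 7.73 and 7.64 in control embryos and 10.15, 10.01 and 10.42 against 10.78 and 10.93 in mutant embryos. The untreated groups overlapped, and the treated mutant arrays were the highest of all. Its mutant difference of -0.66 was called narrowly (limma adjusted p = 0.0396). The reversed class held 1 gene without treated mutant replicate 2 and 0 at a threshold of 0.01. Ccnb1, cyclin B1, read 9.83, 9.66 and 9.89 against 8.48, 8.43 and 8.52 in control embryos and 9.58, 9.30 and 9.71 against 9.95 and 10.28 in mutant embryos. Its interaction was called for all 3 probe sets, while its mutant difference was -0.58 (limma adjusted p = 0.0457). Sap30, a subunit of the Sin3 deacetylase complex, and Kdm1a, the histone demethylase LSD1, had interactions of -2.05 ± 0.20 and -1.81 ± 0.14. In the opposite direction, the germline histone gene H2bc1 read 10.47, 10.55 and 10.32 against 11.03, 10.84 and 10.89 in control embryos and 10.28, 9.86 and 9.66 against 9.37 and 9.00 in mutant embryos (interaction 1.22 ± 0.23), and H2aw had 1.17 ± 0.16. Among gained genes, Rbm39, a splicing factor gene, read 8.31, 8.17 and 8.21 against 8.41, 8.05 and 7.73 in control embryos and 8.0, 8.02 and 7.86 against 8.81 and 9.21 in mutant embryos. Gch1 (-1.10 ± 0.20), Snap23 (-1.03 ± 0.19) and the elongation factor gene Tcea1 (-1.03 ± 0.22, called for 2 of 3 probe sets) gained a difference the same way. Snap23 and Tcea1 were also lower in untreated mutant than in untreated control arrays.

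Over the 17 genes that gained a difference in favour of untreated embryos, the median genotype difference was 0.64 without and -0.05 with the drug. Spp1, osteopontin, read 4.41, 4.32 and 4.23 against 4.34, 4.53 and 4.32 in control and 5.36, 5.11 and 5.54 against 4.53 and 4.53 in mutant embryos. The untreated mutant arrays lay above all others, and the interaction was 0.88 ± 0.17 (adjusted p = 0.00456). Duoxa2, a maturation factor of dual oxidases, had an interaction of 1.18 ± 0.29 (adjusted p = 0.0181, or 0.0589 without treated mutant replicate 1), and Zfp353-ps, a zinc finger pseudogene, had one of 1.05 ± 0.20.

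In each list of chromatin regulators most measured members had no interaction past the threshold. Of 22 measured PRC1 subunits 5 had a negative and 1 a positive interaction, shares of 22.7% and 4.55% beside 13.5% and 4.14% of all genes. The counts were 3 and 7 after quantile normalization, 7 and 1 without treated mutant replicate 1, and 2 and 3 without replicate 2. Pcgf5, a ring-finger partner of Rnf2 in variant PRC1, read 7.71, 7.41 and 7.33 against 4.90, 4.88 and 4.69 in control embryos and 6.40, 5.77 and 6.20 against 5.01 and 5.10 in mutant embryos (interaction -1.59 ± 0.23, adjusted p = 0.000959). Scmh1, a Polycomb-group protein gene, was higher with the drug in control embryos and had a positive interaction of 1.23 ± 0.23. Of 11 PRC2 subunits 5 (45.5%) had a negative interaction, with 6 without treated mutant replicate 1 and 3 without replicate 2. Rbbp4 went from 1.53 ± 0.11 in control to -0.09 ± 0.13 in mutant embryos, and Rbbp7 gained a difference of -0.66 ± 0.13. The PRC2 median of -0.43 was 0.04 after quantile normalization. Of 26 DNA methylation factors 6 had a negative and 1 a positive interaction (23.1% and 3.85%), and their median of -0.20 was -0.33 and -0.05 without treated mutant replicate 1 or 2 and 0.11 after quantile normalization. Tet1, which oxidizes 5-methylcytosine, read 6.85, 6.78 and 6.88 against 4.26, 4.10 and 4.19 in control embryos and 5.21, 4.83 and 5.21 against 4.25 and 4.41 in mutant embryos, a reduced difference with all 3 probe sets called. Of 31 trithorax genes, demethylases and chromatin remodellers 11 had a negative and 1 a positive interaction (35.5% and 3.23%, or 8 and 5 genes after quantile normalization), with a median of -0.23 that was -0.47 and -0.09 without treated mutant replicate 1 or 2. Kdm3a, an H3K9 demethylase, went from 2.24 ± 0.10 to 0.65 ± 0.11.

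Few of the genes that PRC1 is known to silence were called for treatment in either genotype. Of 38 Hox genes 0 had an interaction past the threshold in limma (4 had a positive one at an unadjusted p below 0.05, and 1 was called after quantile normalization and after cyclic loess), beside 13.5% negative and 4.14% positive over all genes. In control embryos 0 were higher without the drug, also at an unadjusted p below 0.05, and 1 was higher with it, beside 19.3% and 14.1% of all genes. In mutant embryos 0 were called (2 higher without and 3 higher with the drug at an unadjusted p below 0.05). The list's median level lay between 4.29 and 4.58 in every array. Of 98 other developmental regulators known as Polycomb targets, 6 were higher without and 6 higher with the drug in control embryos (9 and 11 at an unadjusted p below 0.05). In mutant embryos 0 were higher without and 1 higher with it (3 and 5 at an unadjusted p below 0.05), beside 2.6% and 1.09% of all genes. Their median levels were 4.44 to 4.59. The interaction was negative for 2 and positive for 0 in limma (7 and 6 at an unadjusted p below 0.05, with 5 and 3 called after quantile normalization). The negative ones were Gata4 (-1.03 ± 0.16) and Foxa1 (-0.50 ± 0.15, adjusted p = 0.0454), and the call of Foxa1 was lost without any single array other than untreated control replicate 3. Levels this close to the array median leave little room to see a fall. Of 42 pluripotency and first-lineage regulators 11 had a negative and 2 a positive interaction (26.2% and 4.76%). Nr5a2, a nuclear receptor, read 8.03, 7.84 and 8.11 against 6.25, 5.79 and 5.64 in control embryos and 6.66, 6.18 and 6.56 against 6.26 and 6.64 in mutant embryos, and Esrrb, another nuclear receptor gene, had an interaction of -1.02 ± 0.12.

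The metallothionein genes Mt1 and Mt2, which encode metal-binding proteins, differed from each other. Mt1 read 8.71, 8.66 and 8.71 against 6.08, 6.04 and 5.92 in control embryos and 9.34, 9.44 and 9.08 against 9.00 and 9.08 in mutant embryos, so that the mutant groups overlapped at a high level and the difference of 2.68 ± 0.10 was lost (0.25 ± 0.11, adjusted p = 0.312). Mt2 read 9.26, 9.10 and 9.16 against 5.62, 5.14 and 5.19 in control embryos and 7.94, 7.81 and 7.67 against 5.26 and 5.82 in mutant embryos, a reduced difference of 2.27 ± 0.18 beside 3.86 ± 0.16. Mt3 and Mt4, and Mtf1 on the same list, had no interaction past the threshold.

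Markers of other cells the pools could hold were mostly dim. The cumulus and granulosa marker Ptgs2, named after its values were seen, differed by genotype. It read 4.34 to 4.89 in the control arrays and 5.71 to 6.11 in the mutant arrays, with an interaction of -0.01 that was not called. Of 29 cumulus and granulosa markers 2 had a negative interaction (6.9%, beside 13.5% of all genes). They were Gja1 (-1.93 ± 0.20), a connexin gene that embryos also express, and Amhr2 (-1.64 ± 0.18). The list's median level was 4.28 to 4.44 in every array. Of 24 sperm markers 1 (4.17%) had a negative interaction, Ldhc (-0.59 ± 0.15, adjusted p = 0.026). It lost its call without control amanitin replicate 1, control untreated replicate 1 or 2, mutant amanitin replicate 2 or mutant untreated replicate 2. The sperm list's median level was 4.24 to 4.40. The part of such cells in the results was not tested.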

How the data were processed

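Values were deposited by the authors as log2 expression values per probe set, as their range shows, and the submitters' processing notes name R 2.10.0 and affy. The sources used here do not state how background was corrected, how arrays were normalized or which genome build was used. The table held 34760 probe sets for 11 arrays in 4 groups, grouped by title. The platform annotation gave 1 symbol to 22856, several to 1756 and none to 10148. Symbols were updated through RefSeq's gene table (19579 by Entrez identifier, 1029 already current, 694 by a unique synonym), and 1554 stayed as in the annotation. Those with several symbols entered the fit and were not named.

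In R 4.3.3, limma 3.58.1 (lmFit, eBayes) fitted a mean for each group to the log2 values (7 residual and 3.59 prior degrees of freedom), with 2-sided p-values adjusted by Benjamini and Hochberg over all probe sets and a threshold of 0.05. All groups shared 1 estimate of the spread, since treated mutant embryos have 2 arrays. Signed differences are untreated minus α-amanitin, and values after ± are limma's standard errors. The fit was tested on simulated data. The labels call the arrays biological replicates of pooled embryos, and their number limits the precision. Groups share replicate numbers, which the labels do not tie to a common batch, and the reported fit has no replicate block.

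Members and the 27 gene lists were chosen with earlier results of these data known. Genes were named by a rule: the 10 most negative and 10 most positive interactions, the 4 leading genes per class and direction, per list the 2 members past the threshold whose adjusted p was smallest, Rnf2 and Ring1, with clone names passed over outside the lists. Of the genes this rule names, 2 are not reported here. A gene outside it is marked in the text as named after its values were seen, except that every measured 2-cell activation gene and every oocyte gene with a negative interaction is named. Alternatives were quantile normalization, cyclic loess, median centring, array weights, a trend prior, the brighter 50% of probe sets, the mean of a gene's probe sets, separate fits per genotype, the replicate block, a stricter threshold of 0.01, a 2-fold minimum, and each array left out.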

Additional observations from a re-analysis of the deposited data

Results flagged for a closer look

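The following named genes are listed because the untreated minus α-amanitin difference itself differed between mutant and control embryos, by the interaction term of limma at an adjusted p below 0.05 over all probe sets. Values are interactions on the log2 scale, from 3 arrays per group and 2 for treated mutant embryos. No explanation was weighed.

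Among genes whose control difference in favour of untreated embryos was lost, the interaction was -3.61 for Rps25, -3.50 for Rnf7, -3.25 for Slc16a6, -3.22 for Psma6, -3.18 for Tomm7, -3.14 for Rpl39l and -3.10 for Aurka. In the protein synthesis lists it was -2.90 for Rps21, -2.74 for Eif3m, -2.48 for Rpl41, -2.27 for Mrps12, -2.15 for Eif3g, -1.88 for Rrp15, -1.84 for Pno1, -1.71 for Hars, -1.37 for Mrps28 and -1.15 for Tars. In the RNA, transcription and transport lists it was -2.99 for Magoh, -2.25 for Polr2i, -2.19 for Nxf1, -1.79 for Taf1 and -1.74 for Ipo5. Protein turnover, folding and respiratory genes had -2.77 for Psmb4, -2.55 for Hsp90ab1, -1.95 for Uqcrb, -1.87 for Cct8 and -1.86 for Uqcr10. Cell cycle genes had -2.85 for Gins3, -2.74 for Cdc45, -2.62 for Cdc20 and -2.52 for Kif20a. Other lists had -2.75 for Dppa3, -2.43 for Mt1, -2.08 for Nr5a2, -1.64 for Amhr2, -1.62 for Rbbp4, -1.03 for Gata4, -1.02 for Esrrb, -0.59 for Ldhc and -0.50 for Foxa1.

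Among reduced differences in favour of untreated embryos the interaction was -3.38 for Bola2, -3.22 for Psmb5, -3.01 for Gabarapl2, -2.93 for Impdh2, -2.26 for Sesn2, -2.0 for Psmb1, -1.93 for Gja1, -1.91 for Tet1, -1.59 for each of Pcgf5, Kdm3a and Mt2, -1.45 for Pramel6 and -1.32 for Gadd45a. Larger differences had 2.27 for Gm4340, 1.24 for Pramel20, 1.17 for Zfp352, 0.79 for Snord33 and 0.75 for Klhl6.

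Among differences in favour of the drug, those lost had interactions of 2.36 for Psenen, 2.1 for Stard3nl, 1.88 for Cdo1, 1.86 for both Cntnap1 and Ybx3, 1.78 for Wee2, 1.74 for Tram1, 1.72 for B4galt4, 1.69 for Olfr288 and 1.23 for Scmh1. Those reduced had 1.89 for Pla2g4c, 1.46 for Iqca, 1.26 for Sytl4 and 1.23 for Trappc2. Reversed genes had -3.12 for Snrpd3, -2.05 for Sap30, -1.90 for Ccnb1, -1.81 for Kdm1a, 1.22 for H2bc1 and 1.17 for H2aw. Gained differences had 1.18 for Duoxa2, 1.05 for Zfp353-ps and 0.88 for Spp1, and -1.22 for Rbm39, -1.10 for Gch1, -1.03 for Snap23 and for Tcea1, -1.0 for Rbbp7 and -0.68 for Parn.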

How the results depend on the processing

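The values below moved under an alternative, and the cause was not tested. Quantile normalization gave 3323 positive interaction calls of probe sets in place of 1205, 6194 control and 887 mutant calls in favour of the drug, and 1564 lost genes higher untreated and 2166 higher with the drug, with 250 and 279 kept, 17 larger, 92 gained and 35 reversed genes and a mutant median of 0.18 for genes higher in untreated control embryos. Cyclic loess gave 2191 positive interactions, 1380 mutant calls in favour of untreated embryos, 208 kept and 575 reduced genes higher untreated, 1545 lost genes higher with the drug, 86 gained and 27 reversed genes, and a mutant median of -0.13 for genes higher in treated control embryos. Array weights gave 475 and 83 mutant calls, 74 and 34 kept, 199 reduced, 18 gained and 3 reversed genes. The brighter 50% of probe sets gave 634 mutant calls in favour of the drug, 194 kept genes in that direction, 78 gained and 32 reversed. Median centring gave 7 reversed genes, and a trend prior gave 79 kept genes higher with the drug and 6 reversed. Separate fits per genotype, which leave 3 and 2 arrays to estimate the mutant spread, gave 137 and 5 mutant calls, 26 and 0 kept, 34 reduced, 2 gained and 0 reversed genes. At least 2-fold interactions numbered 350 positive and 2330 negative. A threshold of 0.01 gave 77 and 15 kept genes, 154 reduced, 357 lost genes higher with the drug, 3 larger, 9 gained and 0 reversed. The fit with the replicate number as a block gave 152 mutant calls in favour of the drug, 47 kept genes in that direction, 26 gained and 7 reversed. Whether the numbers pair the samples was not settled. Among the groups of 3 arrays, all 9 same-number pairs had a positive correlation of deviations (0.029 to 0.154, with 3 over 0.1) and each of the 9 arrays correlated best with its own number, a hint from the data and not the design. All 6 same-number pairs with a treated mutant array were negative (-0.223 to -0.0193), in a group of 2 whose deviations mirror each other. The share of negative interactions with the larger part in the untreated pair, recomputed after seeing the data, lay between 67.2% and 83.7% over the alternatives run, and that of positive ones between 42.2% and 55.9%.

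With each array left out in turn, probe sets called ranged from 814 to 1590 for positive and 2961 to 4126 for negative interactions, 4983 to 5684 and 3181 to 4244 for treatment in control embryos, and 531 to 885 and 72 to 1277 in mutant embryos. Genes ranged from 71 to 149 (kept, higher untreated), 13 to 540 (kept, higher with the drug), 215 to 376 (reduced, higher untreated), 1885 to 2488 and 414 to 1168 (lost in each direction), 4 to 13 (larger), 23 to 177 (gained), 1 to 134 (reversed) and 2826 to 3870 (undecided). The mutant medians of genes called in control embryos ranged from 0.05 to 0.22 and from -0.34 to -0.08. The untreated Ring1 difference of -0.07 ranged from -0.18 (without control untreated replicate 3) to 0.04 (without control untreated replicate 2). Named interactions lost their call in other settings for Pramel20 (adjusted p = 0.0828 with array weights, 0.0562 with the block), Foxa1 (0.0696 and 0.0742), and Ldhc (0.136 after quantile normalization, 0.0607 after cyclic loess, 0.062 with the block), and separate fits ended the mutant calls of Rbm18, Tnpo1, Usp46 and Septin11 (0.0761 to 0.154), as did array weights for Rbm18 (0.0587) and Septin11 (0.0784).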
